A study of Arabidopsis thaliana with 4 samples.

Results

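The 10 genes of Arabidopsis thaliana described here are AT5G03350, AT3G22240, AT1G13470, AT3G48080, AT5G59670, AT3G48650, AT3G60420, AT3G28540, AT3G51660 and SAG101. The set is labelled as salicylate and immunity genes with low signal in the jaw-D mutant. SAG101 was only little lower there, and the link of each gene to salicylate or immunity was not tested. The genes were chosen by name, with their signals in this same comparison known, and make up 10 of the 13286 gene loci that could be named on the arrays. SAG101 was taken for its role as the immune partner of EDS1-type proteins. They are read by 11 probe sets, since AT3G60420 has 2, out of 22746 probe sets that are not array controls. The differences of these genes between the genotypes are therefore a description and carry no test.

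Expanded leaves of plants grown in short days were profiled on single-colour oligonucleotide arrays. There were 2 arrays of the jaw-D mutant, in which the microRNA miR319a is overexpressed, and 2 arrays of the reference accession Columbia, for which the labels name no mutation. The labels leave out the age of the plants, the pooling of leaves and the element that drives miR319a. Nor do they say whether the arrays of a genotype came from separate plants, so each p-value covers the spread between arrays alone, which may be technical.

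Salicylate is the plant hormone that rises on attack by biotrophic pathogens and switches on defence genes in leaves. Some of the receptors inside the cell that detect pathogen proteins signal through the lipase-like protein EDS1. EDS1 pairs with either PAD4 or SAG101, and the pairs act with helper receptors in defence. Receptor kinases at the cell surface sense microbial molecules and feed the same defence output. In bulk leaf RNA, fewer cells that express a gene and less RNA of that gene per cell cannot be told apart.

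All signals are probe-set intensities on a linear scale in arbitrary units, scaled by the authors to a common level on each array. Median signals of the arrays lay between 74.6 and 77.2, and the largest between 11151 and 15234. Correlations of log2 signals across probe sets were 0.983 and 0.984 within the genotypes and from 0.971 to 0.977 between them. Of the leaf markers fixed for this comparison, RCA, which activates Rubisco, read 9730.1 and 7868.8 in jaw-D leaves, against 9013.3 and 10769.7 in Columbia leaves. LHCB4.1, an antenna protein of photosystem II, read 11528.0 and 10114.9 in jaw-D leaves, against 11540.7 and 13088.8 in Columbia leaves. These 2 were the only measured ones of 6 listed leaf markers, and both were high on all 4 arrays. Here and below, a gene is called measured if the annotation paired a probe set with that gene alone. Other genes may still be read by the 8730 probe sets without a name or the 503 paired with several genes. The 3 measured root markers summed to 70.2 to 72.5 in jaw-D leaves and 79.2 to 92 in Columbia leaves, and none of the 4 flower markers was among the named loci.

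Of the 10 genes, 9 had strongly lower signal in jaw-D than in Columbia leaves, and SAG101 was little lower. On the log2(signal + 16) scale, on which a positive difference means higher in jaw-D, the differences ran from -3.23 to -0.32 with a median of -1.76, beside a median of -0.04 over all probe sets. The genotypes did not overlap, with jaw-D on the lower side, for each of the 10 genes and for 10 of the 11 probe sets. This held for 26.5% of all probe sets, and since the genes were chosen on this contrast nothing is read from their count. Adding 16 before the logarithm understates the change of dim probe sets, and the background level of a probe set is unknown because the deposited table holds no detection calls.

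**Figure D1:**
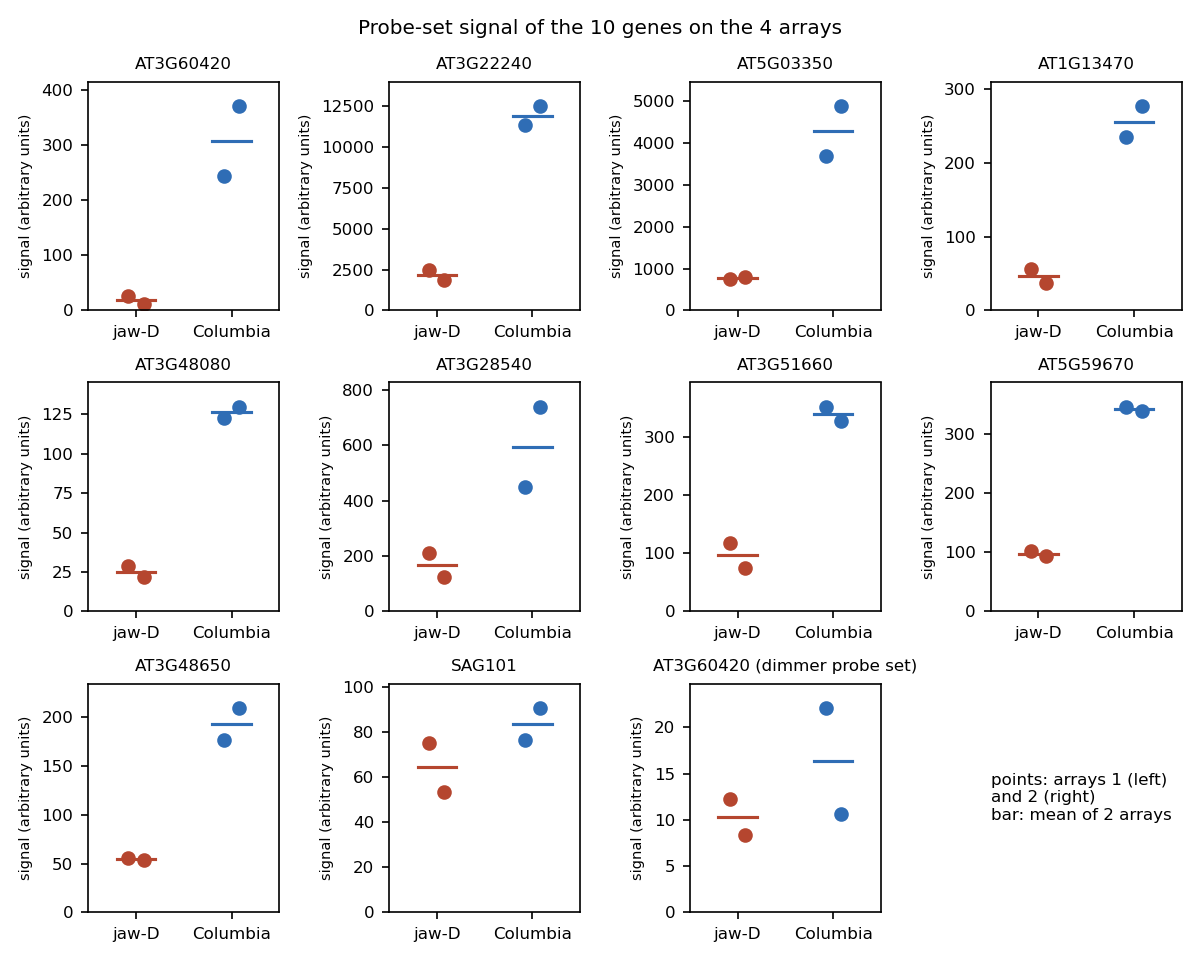
Signal of each gene's probe set in arbitrary units (vertical axes, each starting at 0) on the 2 jaw-D arrays (left) and the 2 Columbia arrays (right), with bars at the means. In every panel but that of the dimmer AT3G60420 probe set the jaw-D points lie below the Columbia points, and SAG101 has the smallest gap among the panels where they are apart.

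The EDS1 branch is represented by AT3G48080 and SAG101. AT3G48080 is the tandem homologue of EDS1, and it read 28.8 and 21.6 in jaw-D leaves, against 122.6 and 129.5 in Columbia leaves. The means were 25.2 ± 5.09 in jaw-D and 126 ± 4.88 in Columbia (SD, n = 2 arrays each), a log2 difference of -1.79 (SE 0.16). The arrays of each genotype were close to each other and the genotypes were well apart. In the reference gene order AT3G48080 lies directly beside EDS1, and the 2 genes are known as close copies. EDS1 was not analysed here, and how far its transcript contributes to this probe set was not tested.

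SAG101, the partner protein of EDS1 first described as a senescence-associated gene, read 75.4 and 53.6 in jaw-D leaves, against 76.3 and 90.7 in Columbia leaves. The higher jaw-D array and the lower Columbia array were nearly level, with a ratio of Columbia to jaw-D of 1.01 between them. The means were 64.5 ± 15.4 in jaw-D and 83.5 ± 10.2 in Columbia, a log2 difference of -0.32 (SE 0.19). With 1 array left out in turn it was -0.51 without jaw-D array 1, -0.12 without jaw-D array 2, -0.42 without Columbia array 1 and -0.21 without Columbia array 2. The difference of AT3G48080 ran from -1.92 to -1.66 in the same way. On these arrays the EDS1 homologue was thus well below its Columbia signal in jaw-D, while its partner gene was not clearly apart. AT3G48080 was chosen with its low jaw-D signal known, whereas SAG101 was taken for its role. A larger difference for AT3G48080 thus follows in part from the choice, and the difference between the 2 genes was not tested.

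AT5G59670 encodes a receptor kinase with leucine-rich repeats in its outer part, of the same subfamily as kinases known from defence against oomycetes and bacteria. It read 101.1 and 92.8 in jaw-D leaves, against 344.7 and 338.7 in Columbia leaves. Its log2 difference was -1.66 (SE 0.15), and it had the smallest spread between arrays of one genotype among the 10 genes, with an SD of 0.05 on the log2 scale. Mean signals were 96.9 ± 5.87 in jaw-D and 342 ± 4.24 in Columbia.

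AT5G03350 and AT3G22240 had high signals on all 4 arrays. AT5G03350 encodes a legume lectin-like protein known to be induced by salicylate. It read 758.8 and 797.5 in jaw-D leaves, against 3680.5 and 4878.6 in Columbia leaves, a log2 difference of -2.42 (SE 0.19). The lowest Columbia signal was 4.62 times the highest jaw-D signal.

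AT3G22240 belongs to a family of small cysteine-rich membrane proteins that includes the pathogen-responsive PCC1. It read 2480.1 and 1893.3 in jaw-D leaves, against 11357 and 12520.2 in Columbia leaves, a log2 difference of -2.45 (SE 0.19). Mean signal in Columbia was 5.46 times that in jaw-D, nearly the same ratio as for AT5G03350 at 5.50. Both ratios are of mean signals with nothing added. Because both probe sets are far above the added 16, their log2 differences hardly depend on it.

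AT3G60420, annotated as a phosphoglycerate mutase family gene, had the largest difference of the set with 16 added before the logarithm. Its brighter probe set read 26.6 and 10.8 in jaw-D leaves, against 243.5 and 371.3 in Columbia leaves, a log2 difference of -3.23 (SE 0.30). The jaw-D signals are near the bottom of the range, and between 21.7% and 22.3% of all probe sets read under 16 on the jaw-D arrays, against 17.8% to 18.4% on the Columbia arrays. Its dimmer probe set read 12.3 and 8.4 in jaw-D leaves, against 22.1 and 10.6 in Columbia leaves, and the genotypes overlapped. The log2 difference there was -0.28 (SE 0.22), and -0.02 without Columbia array 1 or -0.54 without Columbia array 2, so the probe sets of this gene disagree in size, the dimmer one lying near the bottom of the range in both genotypes.

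AT3G28540 encodes an ATPase of the AAA type. It read 210.2 and 125.3 in jaw-D leaves, against 448.1 and 737.7 in Columbia leaves, a log2 difference of -1.73 (SE 0.32). Its arrays were the most scattered of the set, with an SD of 0.49 on the log2 scale within genotypes, and the closest arrays differed by a ratio of 2.13. AT3G51660 encodes a protein of the family of macrophage migration inhibitory factor, a cytokine of animals, and its plant role is less well known. It read 117.9 and 74.4 in jaw-D leaves, against 351.2 and 326.8 in Columbia leaves, a log2 difference of -1.69 (SE 0.22). Here the jaw-D arrays were farther apart than the Columbia arrays.

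The remaining members are AT1G13470, a gene of the DUF1262 family of unknown function, and AT3G48650, which the reference lists as a transcribed pseudogene. AT1G13470 read 56.7 and 36.9 in jaw-D leaves, against 234.3 and 276.6 in Columbia leaves, a log2 difference of -2.13 (SE 0.21). AT3G48650 read 56.3 and 53.9 in jaw-D leaves, against 176.6 and 209.6 in Columbia leaves, a log2 difference of -1.55 (SE 0.16). For both, the genotypes were far apart relative to the distance between arrays of one genotype.

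Of the 10 genes, 8 had a mean signal no lower than the median of the 22746 probe sets, and AT3G48080 and SAG101 were just below it. The amount added before the logarithm set the size of the difference for the dimmer genes and hardly mattered for the bright ones. With 1 in place of 16, AT3G60420 had -4.06, and with 64 it had -2.15, smaller in size than AT3G22240 at -2.43 and AT5G03350 at -2.35. AT3G48080 had -2.29 with 1 and -1.09 with 64. For AT3G22240 and AT5G03350 the whole range over 12 alternative settings was -2.64 to -2.26 and -2.62 to -2.22.

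**Figure D2:**
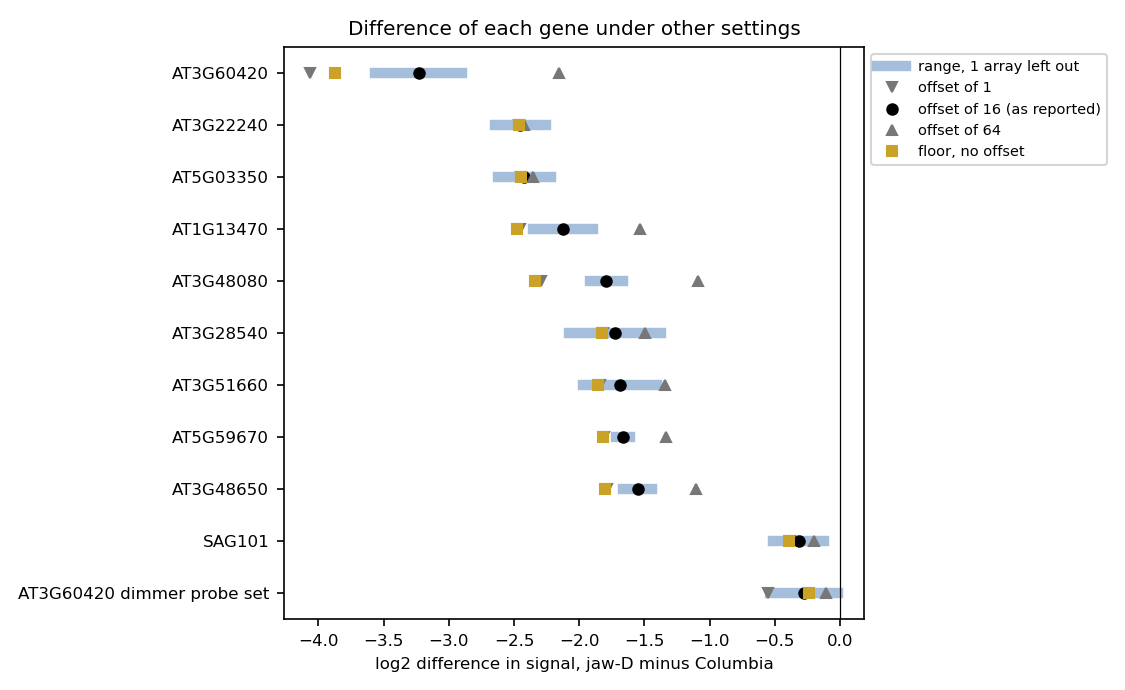
Log2 difference in signal, jaw-D minus Columbia (horizontal axis), of each gene as reported, with 1 or 64 added in place of 16, with a floor on low signals, and as the range when 1 array is left out. All points lie below 0. AT3G60420 and AT3G48080 shift most with the amount added, and the range of the dimmer AT3G60420 probe set reaches -0.02.

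The genes were chosen with their signals on these same arrays known. The gaps between arrays of a genotype may therefore not be independent of that choice. Of the 10 genes, 9 were lower on jaw-D array 2 than on jaw-D array 1, the exception being AT5G03350, while 46.3% of all probe sets were lower there. In Columbia leaves 8 of the 10 were higher on array 2 than on array 1, the exceptions being AT3G51660 and AT5G59670, against 49.8% of all probe sets. The median difference of array 2 minus array 1 was -0.39 in jaw-D and 0.22 in Columbia for the 10 genes, against 0.02 and 0.00 for all probe sets. In size the typical gap was 0.39 in jaw-D and 0.22 in Columbia, beside 0.18 and 0.15 over the brighter probe sets, those whose mean signal reached the median. The genes thus tended to differ together between arrays of one genotype, in opposite directions in jaw-D and Columbia. Since the replicate number carries no known meaning, and genes on an array share that array, this is a description without a test.

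Among quality controls, the 25S rRNA signal also differed between array numbers, at 2760.2 on jaw-D array 1 and 407.9 on jaw-D array 2, and 3146.4 on Columbia array 1 and 800.4 on Columbia array 2. The 25S rRNA signal was lower on array 2 than on array 1 in both genotypes. For the GAPDH control, signal at the 3' end over that at the 5' end was 2.06 and 1.36 on jaw-D arrays 1 and 2, and 1.41 and 1.43 on Columbia arrays 1 and 2. For a second GAPDH design the same ratio was 1.16 and 1.24 on jaw-D arrays 1 and 2, and 1.20 and 1.04 on Columbia arrays 1 and 2. The part of these controls in the gaps between arrays was not tested.

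**Figure D3:**
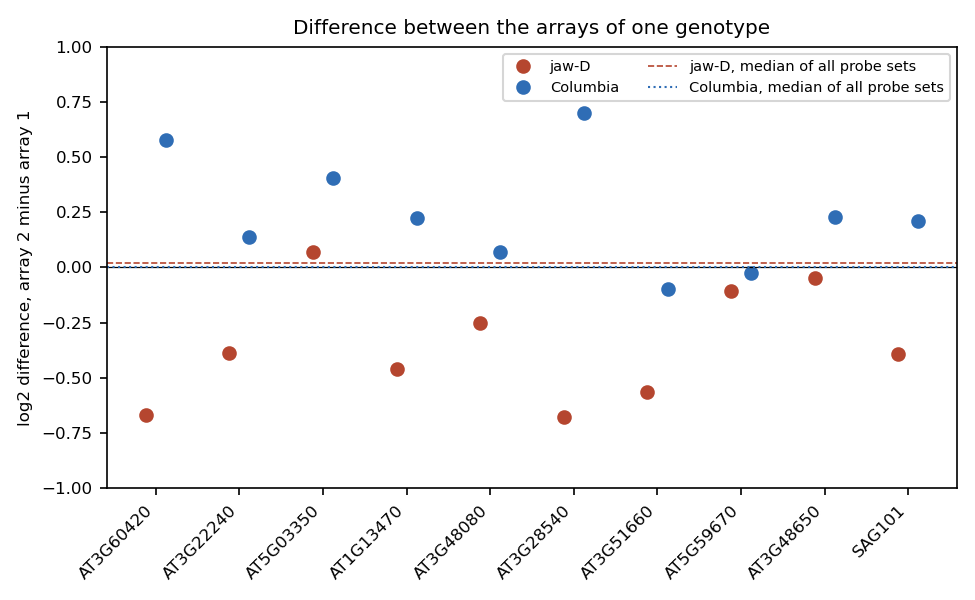
Log2 difference between the arrays of a genotype, array 2 minus array 1 (vertical axis), for each of the 10 genes in jaw-D and Columbia leaves, with lines at the medians over all probe sets. The jaw-D points lie below 0 except for AT5G03350, and the Columbia points above 0 except for AT3G51660 and AT5G59670.

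Of the 10 genes, 6 lie on chromosome 3, which holds 20.5% of all named loci on the arrays. The 3 genes on either side of each were therefore examined in the order of the TAIR10.1 reference, 60 places in all, of which 26 held a measured gene. The median log2 difference of the neighbours was -0.10, and 22 of the 26 differed by less than 0.5 in size. By limma, 0 of the 26 had an adjusted p under 0.05, where 0.189% of all probe sets did (0.154% lower and 0.0352% higher in jaw-D), and 4 had an unadjusted p under 0.05, 3 of them lower in jaw-D, against 13% of all probe sets (8.47% lower and 4.53% higher). Signals were lower in jaw-D with no overlap for 11 of the 26 (42.3%), where 26.5% of all probe sets were. They were higher with no overlap for 6 of the 26, where 3974 of all 22746 probe sets were. Whether the neighbours share in the change of the genes was not tested.

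The 3 neighbours lower at an unadjusted p under 0.05 each lie directly next to a gene of the set in the reference gene order. AT5G59680, another receptor kinase of the subfamily of AT5G59670, read 35.6 and 31.6 in jaw-D leaves, against 96.1 and 97.6 in Columbia leaves. Its log2 difference was -1.19 (SE 0.15) and its adjusted p, from limma, was 0.0780. Other kinase genes of that cluster stayed near 0, with -0.08 for AT5G59660 and -0.20 for AT5G59650, both dim.

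AT3G48640, next to the pseudogene AT3G48650, read 14.5 and 15.5 in jaw-D leaves, against 50.3 and 63.9 in Columbia leaves, which gave -1.23 on the log2 scale (SE 0.16, limma adjusted p = 0.0931). AT3G60440, next to AT3G60420 and of the same family, read 87.4 and 86.8 in jaw-D leaves, against 146.4 and 183.5 in Columbia leaves. Its log2 difference was -0.80 (SE 0.17) and its adjusted p, from limma, was 0.185. It passed, with an adjusted p of 0.0352, when only the brighter probe sets were tested, and its adjusted p ran from 0.0352 to 0.516 over 12 settings.

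Among the neighbours of AT3G48080, only AT3G48070 had a probe set that the annotation paired with it alone. It read 297.2 and 311.0 in jaw-D leaves, against 290.2 and 270.3 in Columbia leaves. The nearest measured neighbours of AT3G22240 and AT5G03350 were slightly higher in jaw-D, with 0.36 for AT3G22250 and 0.21 for AT5G03345, neither passing the test. At AT5G03345 the genotypes were narrowly apart, with 549.9 and 599.6 in jaw-D leaves, against 545.9 and 444.7 in Columbia leaves. The other measured neighbours had log2 differences from -0.55 to 0.41. The lowest of these was AT5G14900, 3 places from SAG101, a dim gene with 20.1 and 6.0 in jaw-D leaves, against 22.1 and 28.6 in Columbia leaves (limma adjusted p = 0.457).

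**Figure D4:**
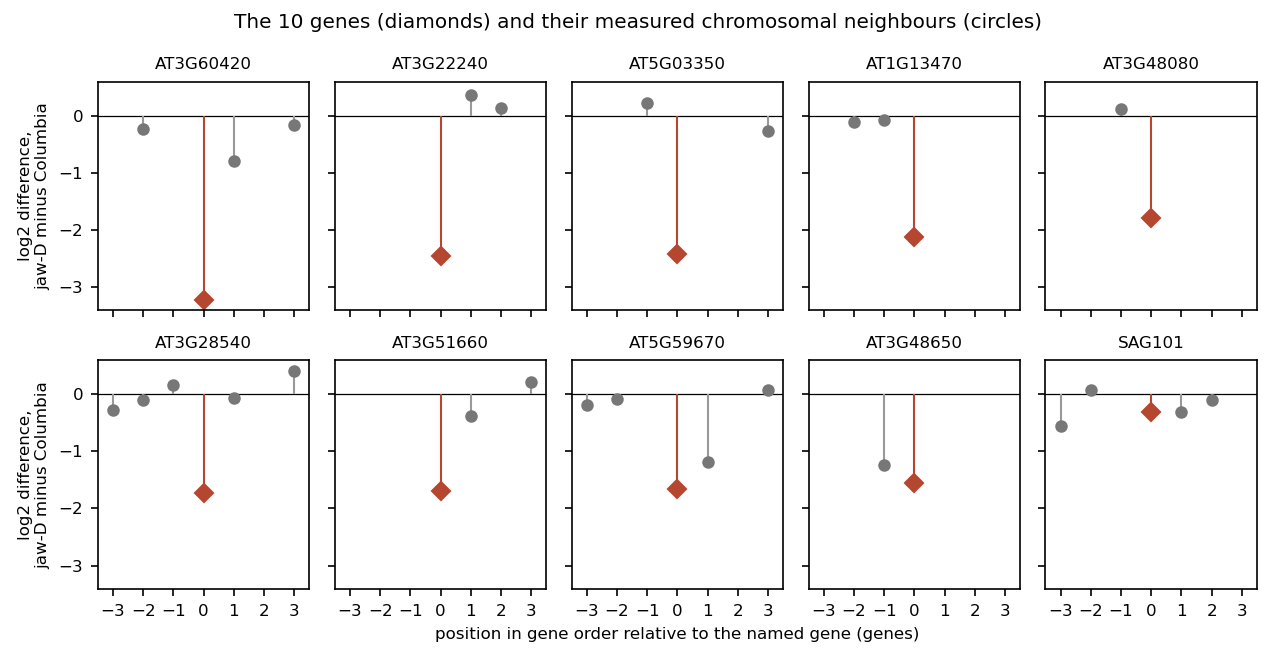
Log2 difference, jaw-D minus Columbia (vertical axis), of each gene (diamond, at 0) and of the measured genes up to 3 places away in the reference gene order (circles). Of the 26 neighbours 22 lie within 0.5 of 0, and the others are AT5G59680 next to AT5G59670, AT3G48640 next to AT3G48650, AT3G60440 next to AT3G60420 and AT5G14900 at 3 places from SAG101.

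Relatives of 6 of the genes were examined, using families listed from general knowledge after the deposited table had been seen. Some of these relatives are also neighbours described above. Among them are AT5G59680 and AT3G60440, which are counted again here. Of 75 listed relatives 51 were measured, with a median log2 difference of -0.10, and 0 passed by limma over all probe sets. At an unadjusted p under 0.05 there were 10 lower and 2 higher of the 51, beside 8.47% and 4.53% of all probe sets. For each of these 6 families the gene of the set had a larger difference than any measured relative, a description that follows in part from how the genes were chosen.

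Among legume lectin genes, AT3G16530 differed in the direction opposite to AT5G03350. It read 1018.8 and 1080.5 in jaw-D leaves, against 449.5 and 385.9 in Columbia leaves, which gave 1.30 on the log2 scale (SE 0.16, limma adjusted p = 0.0759). It passed over brighter probe sets (adjusted p = 0.00339), with an intensity trend (adjusted p = 0.0163) and with 64 added (adjusted p = 0.0360), and its adjusted p reached 0.425 when arrays were left out or other settings used. The other 3 measured lectin genes had log2 differences between -0.22 and 0.05.

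Of 38 listed kinases of the subfamily of AT5G59670, 30 were measured, with a median of -0.06. None passed by limma, and 6 of the 30 were lower at an unadjusted p under 0.05, beside 8.47% of all probe sets. Of these AT5G59680 had the largest difference and AT4G29450 the next, at -0.80, although AT4G29450 read only 2.4 and 1.2 in jaw-D leaves, against 10.1 and 20.7 in Columbia leaves. Most members of this subfamily were dim in both genotypes.

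Of 19 listed ATPases related to AT3G28540, 12 were measured, with a median of -0.19 and 0 called by limma. At an unadjusted p under 0.05, 3 of the 12 were lower and 1 was higher, beside 8.47% and 4.53% of all probe sets. AT5G17760 had the largest difference, with 26.6 and 38.7 in jaw-D leaves, against 68.4 and 125.9 in Columbia leaves, a log2 difference of -1.18 (SE 0.28, adjusted p = 0.219 by limma). The tandem relatives AT3G28510 and AT3G28520 were near the bottom of the range in both genotypes.

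The relatives of AT3G51660, AT5G01650 and AT5G57170, were well measured and nearly level between genotypes. AT5G01650 read 573.1 and 526.8 in jaw-D leaves, against 601.6 and 581.2 in Columbia leaves, a log2 difference of -0.10. AT5G57170 had -0.11. For the DUF1262 family of AT1G13470, AT1G13540 was the only measured relative of 8 listed and read at most 5.2 on any array.

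**Figure D5:**
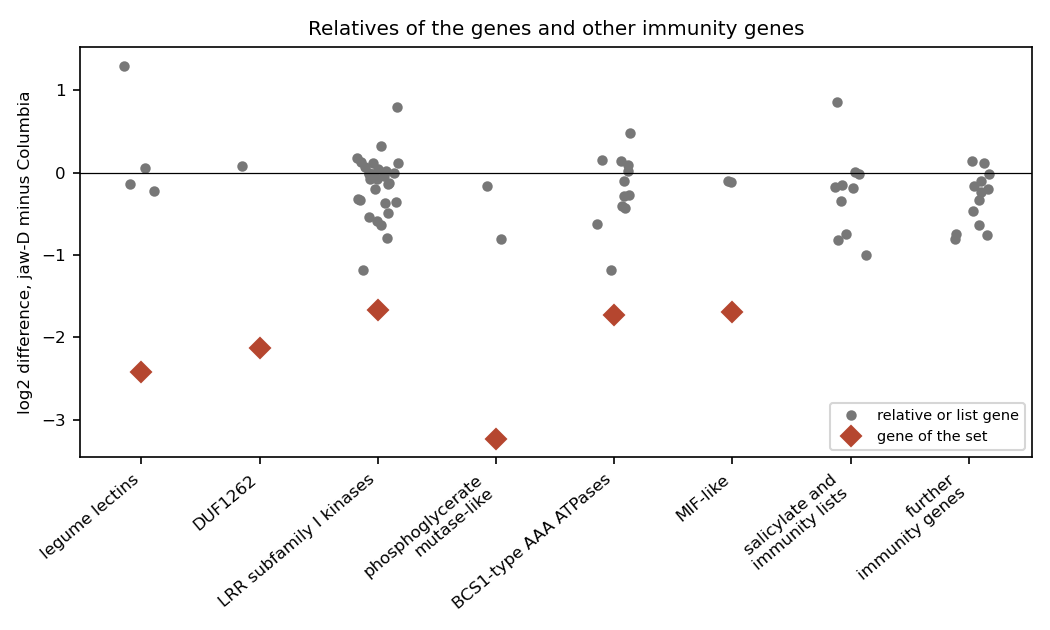
Log2 difference, jaw-D minus Columbia (vertical axis), of the genes of the set (diamonds) beside their measured relatives, the measured genes of the salicylate and immunity lists, and further immunity genes (circles, spread sideways for clarity). In each family the diamond lies below all of its relatives, and the list genes lie between -1.001 and 0.86.

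The wider salicylate and immunity pathway was covered by 10 lists with 98 genes, of which the annotation named only 10. None of the listed genes for salicylate synthesis, for its perception or for intracellular receptors was among them, and EDS1, PAD4 and the PR genes were not analysed here. By limma, 0 of the 10 passed over all probe sets, and 3 were lower and 1 higher at an unadjusted p under 0.05, beside 8.47% and 4.53% of all probe sets. With so few genes named, nothing is read from these counts. Their median log2 difference was -0.18.

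The largest of these differences was in AT5G52810, listed for the synthesis of pipecolate, a precursor of the signal for systemic resistance. It read 64.5 and 60.1 in jaw-D leaves, against 127.0 and 155.7 in Columbia leaves, a log2 difference of -1.001 (SE 0.16, adjusted p = 0.129 by limma). Over brighter probe sets alone it passed with an adjusted p of 0.0132, and over all 12 settings its adjusted p ran from 0.0132 to 0.474. EFR, the surface receptor for a bacterial elongation factor, read 27.9 and 44.5 in jaw-D leaves, against 85.5 and 65.6 in Columbia leaves, a log2 difference of -0.82 (SE 0.22, adjusted p = 0.244). Its arrays did not overlap between genotypes. BIK1, the kinase that relays signals from such receptors, was level at 136.1 and 141.0 in jaw-D leaves, against 130.8 and 144.6 in Columbia leaves.

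GRX480, a glutaredoxin induced by salicylate, read 21.3 and 38.5 in jaw-D leaves, against 67.9 and 51.6 in Columbia leaves, a log2 difference of -0.74 (SE 0.23, adjusted p = 0.297 by limma). AT5G66890, listed with the helper receptors of the EDS1 branch, was dim, with 16.6 and 15.1 in jaw-D leaves, against 27.6 and 21.2 in Columbia leaves. The senescence regulator WRKY6 differed the other way, with 24.1 and 48.1 in jaw-D leaves, against 15.8 and 8.4 in Columbia leaves, a log2 difference of 0.86 (SE 0.27, adjusted p = 0.293). WRKY53, a regulator of senescence and defence, overlapped between genotypes and had -0.19. The salicylate-modifying enzyme genes UGT76B1, UGT74F1 and BSMT1 read at most 22.0 on any array and had -0.17, -0.01 and -0.15.

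A further 13 immunity genes, picked by name from the annotation without their values after the deposited table had been seen, had a median log2 difference of -0.23. By limma 0 of the 13 passed, and 5 were lower and 0 higher at an unadjusted p under 0.05, beside 8.47% and 4.53% of all probe sets. They included the ubiquitin ligase genes PUB22 and PUB24, which restrain surface immunity, with -0.80 (SE 0.15, adjusted p = 0.155) and -0.76 (SE 0.15, adjusted p = 0.178). PUB24 passed over brighter probe sets (adjusted p = 0.0342), and its adjusted p ran from 0.0342 to 0.516 over 12 settings. Their relative PUB23 read 17.3 and 44.9 in jaw-D leaves, against 21.5 and 28.7 in Columbia leaves, so its genotypes overlapped, with a log2 difference of 0.14 (SE 0.30, adjusted p = 0.902). CSA1, an intracellular immune receptor, read 197.6 and 172.6 in jaw-D leaves, against 248.9 and 274.6 in Columbia leaves, a log2 difference of -0.47 (SE 0.16, adjusted p = 0.316). The receptor kinase gene FER and the SUMO ligase gene SIZ1 had 0.12 and -0.11.

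The probe sets whose profile over the 4 arrays was most like the mean profile of the 10 genes were sought among 5978 brighter probe sets of other named genes, by Euclidean distance of log2 signals centred on each probe set's mean. The nearest were AT2G29290, of the tropinone reductase-like family, at a distance of 0.25 and the sucrose transporter gene SWEET13 at 0.27. AT2G29290 read 282.3 and 245.2 in jaw-D leaves, against 998.4 and 955.4 in Columbia leaves. AT1G19960, the serine carboxypeptidase-like gene scpl46 and AT5G24210 followed at 0.42, 0.46 and 0.49. AT5G24210 read 273.8 and 165.0 in jaw-D leaves, against 555.7 and 681.0 in Columbia leaves. Both it and SWEET13 were lower on array 2 in jaw-D and higher on array 2 in Columbia. AT2G29290, AT1G19960 and scpl46 were lower on array 2 in both genotypes. The gaps between arrays are part of the profile by which these genes were chosen. With 4 arrays many genes that are lower in jaw-D have such a profile.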

How the data were processed

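The deposited table gives 1 linear signal intensity per probe set and array. The authors' software and scaling target are not stated in the labels. The mean of each array without the lowest and highest 2% of rows was 200.0, as read from the deposited values. Of 22810 rows, 64 controls were left out and 22746 tested. The platform annotation paired 13513 probe sets with 1 gene, 13436 of them matched to 13286 loci of TAIR10.1, used for names and gene order only. A gene with several probe sets is represented by the brightest.

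Signals were analysed as log2(signal + 16), jaw-D minus Columbia, by the moderated linear model of limma 3.58.1 (lmFit, eBayes; R 4.3.3; 2 residual and 3.76 prior degrees of freedom), two-sided, Benjamini-Hochberg adjusted over all probe sets, threshold 0.05. The fit was tested on 10 simulated datasets with noise modelled on these arrays and 200 changed probe sets in each. An adjusted p under 0.05 was reached by 8.8% of log2 changes of -1, 84% of -2, 96.6% of -3 and 84.6% of 2. A count of 0 passing genes thus does not show that the genes were unchanged. An SE is the moderated standard error of that fit. The number of arrays limits the precision. The members, lists and tests were chosen with earlier results of these data known. Named genes comprise all members, all measured neighbours and list genes of the EDS1 branch and salicylate outputs, up to 4 genes of each other list by smallest p, and the 5 nearest profiles. Family and further immunity genes were added later. The search for related proteins in that rule was not run, because no protein sequences were used here. Deviations of arrays with the same number correlated at -0.07, so the numbers were not taken as pairs. Figures were drawn with matplotlib 3.10.9.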

Additional observations from a re-analysis of the deposited data

How the results depend on the processing

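Under 12 alternatives all 10 genes kept the sign of their difference wherever they were tested (AT3G48080 and SAG101 drop out when only brighter probe sets are kept). Their choice on this contrast makes that likely in advance. The median of the 10 genes was -2.07 with a pseudocount of 1, -1.42 with a pseudocount of 64 and -2.10 with a floor of 15.9 in place of a pseudocount, and it ran from -2.02 to -1.64 with 1 array left out. Of 129 values for single probe sets, 113 moved by less than the SD between arrays and 16 by more. Over all probe sets the 43 calls became 0 with a pseudocount of 1 (2538 at an unadjusted p under 0.05), 1 with the floor (2987 likewise), 291 over brighter probe sets (174 lower in jaw-D), 103 with an intensity trend, 66 with the replicate block (44 lower) and 0 without any 1 array (1978 to 2492 at an unadjusted p under 0.05), where a lone array is assumed to vary like the others. In the immunity lists the 0 calls became 1 of 3 measured genes, AT5G52810, over brighter probe sets, where the fit had fewer probe sets and 6.56 prior degrees of freedom. The replicate block changed no call in these lists.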
